A study of Mus musculus with 3 samples.

Results

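Interferon response genes are the genes that a cell switches on after an interferon binds its receptor. Here 35 such genes were listed by symbol, and 34 of them were among the 31053 genes of the deposited tables. Mx2 was not among the rows used here and was not analysed. The 34 genes were followed in 3 classes of cells from subcutaneous masses of CD-1 female mice of 6 to 8 weeks, collected 5 days after implantation. The Matrigel-only mice carried Matrigel, a basement membrane gel, with no oral treatment. The Vehicle mice carried Matrigel with rhBMP2, a recombinant bone morphogenetic protein under which cartilage and then bone form at the site, and were given corn oil with DMSO by mouth. The Palo mice carried the same rhBMP2/Matrigel mixture and were given palovarotene, a retinoid agonist, at 4 mg/kg. Each condition was 1 droplet library made from the masses of a group of mice, and no label tied a cell to an animal, so differences between conditions carry no replicate check and were not tested.

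Type I interferons bind the receptor of Ifnar1 and Ifnar2, and a complex that includes STAT2 and IRF9 then binds the interferon-stimulated response element of target promoters. Interferon gamma, made mainly by T and natural killer (NK) cells, binds the receptor of Ifngr1 and Ifngr2 and acts on promoters through the gamma-activated site. Many target genes answer both signals. Macrophages are known as strong responders to interferon gamma, and fibroblasts respond to both kinds of interferon.

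The promoters of the listed genes were read first, for the cores of these short elements. In RefSeq windows from 250 bases before to 50 bases after each start (GRCm38.p6), 28 of the 34 genes had an entry, with 35 windows. The core of the interferon-stimulated response element was searched on both strands as GAAA, any 2 bases and GAAA, which reads TTTC, any 2 bases and TTTC on the other strand. It lay in the windows of 18 of the 28 genes, 64.3%, against 3.99% of the 27025 genes with an entry. The core of the gamma-activated site, TTC, any 3 bases and GAA, reads the same on both strands and lay in the windows of 10 of the 28 genes, 35.7%, against 9.55% of all genes. Both cores were held by 6 of the 28 genes, 21.4%, against 0.614% of all genes, and where copies of a core overlapped each was counted. Such a match is a description of letters, not of a bound site. The 30-base stretches shown next come from genes on which the later results turn, each written 5′ to 3′ on the strand of its gene, with the matched letters in capitals.
Isg15: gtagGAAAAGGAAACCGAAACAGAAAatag
Ifit1: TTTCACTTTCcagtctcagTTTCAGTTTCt
Trim30a: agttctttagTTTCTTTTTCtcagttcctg
Gbp2: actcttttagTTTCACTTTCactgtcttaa
Gbp7: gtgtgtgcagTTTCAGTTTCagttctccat
Igtp: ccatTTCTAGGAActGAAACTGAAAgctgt
Irf1: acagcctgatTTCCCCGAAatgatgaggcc
Isg20: ctggggagggTTCTTGGAAtttttcctttt
The Isg15 stretch (chr4:156200871-156200900, minus strand) holds overlapping copies of the response element core. The Ifit1 stretch (chr19:34640785-34640814, plus strand) holds 2 copies that do not overlap. Trim30a (chr7:104465210-104465239, minus strand), Gbp2 (chr3:142620594-142620623, plus strand) and Gbp7 (chr3:142530273-142530302, plus strand) each show 1 copy. In the Igtp stretch (chr11:58199507-58199536, plus strand) a gamma-activated site core lies just before a response element core. The stretches of Irf1 (chr11:53769914-53769943, plus strand) and Isg20 (chr7:78913341-78913370, plus strand) hold the gamma-activated site core alone. All 6 guanylate-binding and immunity-related GTPase genes of the list held the response element core, and 3 of them also held the gamma-activated site core. Irf7, Irf9, Oasl1, Oasl2, Ifi44 and Xaf1 held neither core in these windows.

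Several listed genes lie side by side on mm10, by the positions of GENCODE vM21. Gbp5, Gbp7, Gbp3 and Gbp2 lie on chromosome 3 between positions 142493978 and 142638008. Oas2, Oas3 and Oas1a lie on chromosome 5 between 120730333 and 120907521, and Oasl2 and Oasl1 lie on the same chromosome between 114896936 and 114937915. Ifit2, Ifit3 and Ifit1 lie on chromosome 19 between 34550694 and 34650009. The Gbp, Ifit and Oas families have near-identical copies among which reads can be split or lost, so the level of a single member of these families is less certain than that of the family.

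The libraries held 44252421 (Matrigel-only), 46317250 (Vehicle) and 46901673 (Palo) unique molecular identifiers (UMIs), and between 11 and 21 barcodes were shared by any pair of libraries. Cells with 200 to 6000 genes and at most 5% mitochondrial UMIs were kept, which left 8728, 5478 and 7297 cells. Cells in which Col1a1, Col1a2, Col3a1, Dcn and Lum together made up at least 1% of UMIs were called stromal, 2085, 1373 and 1184 cells in the same order of libraries. Of the other cells, those with a UMI of Csf1r or C1qa were called macrophages (5805, 3212 and 5655 cells) and those with a UMI of Cd3e or Nkg7 were called T/NK cells (50, 228 and 44 cells), while cells with genes of both were left out. All 8 stromal, 8 macrophage and 10 T/NK markers were detected in their own class in every library. These lists include the genes that set the classes, so the detection of those genes does not test the class names. Among the stromal cells, those with a UMI of the cartilage genes Acan or Col2a1 numbered 2, 871 and 4 in the Matrigel-only, Vehicle and Palo libraries. The T/NK class of the Vehicle library also held basophil markers at a summed 1424 CPM, where CPM is the UMIs of a gene scaled to counts per 1000000 UMIs of the class, against 0 in the other libraries.

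The summed level of the 34 genes was highest in the Vehicle library in macrophages and T/NK cells, and highest in the Matrigel-only library in stromal cells. In macrophages it was 1790 CPM in the Matrigel-only library (95% interval 1772 to 1809), 3068 CPM in the Vehicle library (3039 to 3097) and 1436 CPM in the Palo library (1422 to 1450). In stromal cells it was 999.7 CPM in the Matrigel-only library (985.9 to 1014), 495.4 CPM in the Vehicle library (486 to 504) and 588.9 CPM in the Palo library (577 to 601). The Vehicle library was thus the highest of the libraries in macrophages and the lowest in stromal cells. In T/NK cells the sum was 1315 CPM (1089 to 1575), 2118 CPM (2001 to 2240) and 1038 CPM (862 to 1240) in the Matrigel-only, Vehicle and Palo libraries. Intervals on levels are exact Poisson and those on ratios conditional binomial, and both cover counting error only. Vehicle over Matrigel-only, the log2 ratio of the sum was 0.78 in macrophages (0.76 to 0.80), a level 1.71-fold higher, and -1.01 in stromal cells (-1.05 to -0.98), a level 2.02-fold lower. Palo over Vehicle, it was -1.10 in macrophages (-1.11 to -1.08), a level 2.14-fold lower, and 0.25 in stromal cells (0.21 to 0.29), a level 1.19-fold higher. These comparisons share the Vehicle library. CPM is a share of class UMIs, and median stromal depth was 9082, 17114 and 12955 UMIs in the Matrigel-only, Vehicle and Palo libraries. The stromal sums came from 20043, 11687 and 9323 list UMIs in 2085, 1373 and 1184 cells. Counted per cell, the stromal list was lower in Vehicle than in Matrigel-only by a smaller margin, and Palo stroma was not above Vehicle. Over all passing cells together the sum was 1382, 1511 and 1126 CPM, with log2 ratios of 0.13 and -0.42 for the same comparisons.

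**Figure D1:**
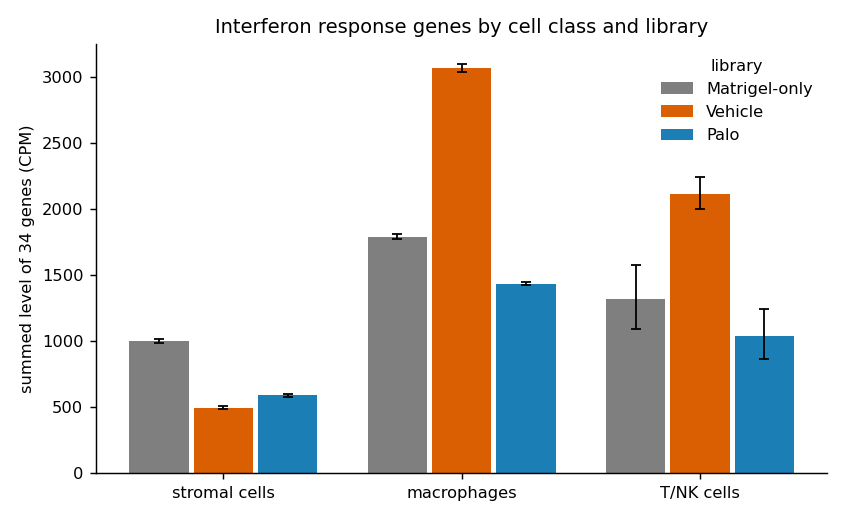
Summed level of the 34 interferon response genes in CPM (bars, from 0) in stromal cells, macrophages and T/NK cells of the Matrigel-only, Vehicle and Palo libraries, with exact Poisson 95% intervals. The Vehicle bar is the highest in macrophages at 3068 CPM and the lowest in stromal cells at 495.4 CPM.

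In CPM the list stood higher in macrophages than in stromal cells in every library, but the gap was far wider in the Vehicle library. Stromal cells were deeper, and the macrophage sums came from 36417, 43260 and 39360 list UMIs in 5805, 3212 and 5655 cells (Matrigel-only, Vehicle, Palo). Counted per cell, the list was not higher in macrophages than in stromal cells in the Matrigel-only and Palo libraries. The macrophage sum was 1.79-fold the stromal sum in the Matrigel-only library, 6.19-fold in the Vehicle library and 2.44-fold in the Palo library. Of the 34 genes, 30, 33 and 32 were higher in macrophages in the same order. The share of all genes higher in macrophages was not counted, so these counts are not read as particular to the list. The free-RNA background was gauged from C1qb and C1qc, complement genes of macrophages, whose level in stromal cells was 3.84% (Matrigel-only), 1.27% (Vehicle) and 2.92% (Palo) of that in macrophages. At these shares the macrophage list would give 68.8, 39.0 and 41.9 CPM in stromal cells, between 6.88% and 7.87% of the stromal sums. Between 23.0% and 27.8% of the stromal cells also had a UMI of Csf1r or C1qa.

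In macrophages, all 34 genes passed the filter on low values (a mean of at least 5 CPM and at least 30 UMIs over the libraries). For single genes, log2 ratios were taken after 5 CPM was added to each level, and a gene was counted when the ratio passed 1.5-fold. Vehicle over Matrigel-only, 18 of the 34 genes were at least 1.5-fold higher and 0 at least 1.5-fold lower, against 6.3% higher and 4.91% lower of the 9539 genes tested. The median log2 ratio was 0.59 over the listed genes and -0.00 over all genes. Ratios above 1 were found for 33 of the 34 genes, against 4755 of the 9539 genes tested.

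The guanylate-binding proteins and immunity-related GTPases, which act on the vacuoles of intracellular microbes, stood furthest apart, with a sum of 254.5 CPM in the Matrigel-only, 687 CPM in the Vehicle and 203 CPM in the Palo macrophages. All 6 were at least 1.5-fold higher in the Vehicle than in the Matrigel-only library. Gbp2, whose promoter stretch is shown earlier, was at 48.4 CPM (Matrigel-only), 245 CPM (Vehicle) and 60.0 CPM (Palo), a Vehicle level 5.06-fold that of the Matrigel-only library (4.71 to 5.43). Gbp5, a relative that promotes inflammasome assembly, was at 7.42, 29.4 and 3.36 CPM in the same order, 3.96-fold higher in Vehicle. Igtp, an immunity-related GTPase, was at 33.0, 101 and 24.7 CPM, 3.07-fold higher. For all 3 genes the Vehicle library stood alone above the other two. Gbp7 was at 105, 192 and 62.9 CPM, Gbp3 at 23.0, 52.8 and 25.2 CPM and Irgm1, a regulator of autophagy, at 38.1, 67.4 and 26.9 CPM.

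The Isg15 system followed, with 74.3, 197 and 67.0 CPM. Isg15, a ubiquitin-like protein that is conjugated to other proteins, was at 58.2 CPM in the Matrigel-only, 157 CPM in the Vehicle and 55.6 CPM in the Palo macrophages, 2.69-fold higher in Vehicle than in Matrigel-only. Usp18, the protease that removes Isg15 and dampens type I receptor signalling, was at 16.1, 40.1 and 11.4 CPM. Both genes had their highest level in the Vehicle library. The Ifit family, which binds foreign RNA, summed to 61.9, 131 and 43.4 CPM, and its 3 genes were each past 1.5-fold. Ifit2 was at 14.2, 40.5 and 12.3 CPM, Ifit1 at 24.8, 49.1 and 14.4 CPM and Ifit3 at 22.9, 41.6 and 16.7 CPM.

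Among the nucleic acid sensors, Zbp1, a sensor of Z-form nucleic acid that can trigger necroptosis, was at 56.6 CPM (Matrigel-only), 152 CPM (Vehicle) and 60.1 CPM (Palo), 2.69-fold higher in Vehicle. The RNA helicases Ifih1 (MDA5) and Ddx58 (RIG-I) stood closer together, at 39.0, 56.2 and 28.5 CPM and at 43.7, 55.7 and 33.3 CPM. Eif2ak2, the kinase PKR that shuts down translation, was at 47.9, 63.9 and 33.5 CPM. Zbp1 was the one sensor past 1.5-fold in this comparison. Of the transcription factors, Irf1, a factor known for early interferon gamma responses, was at 77.7, 145 and 82.4 CPM, 1.87-fold higher in Vehicle. Irf7, the amplifier of type I interferon transcription, was at 78.3, 119 and 90.8 CPM, and the complex partners Stat2 and Irf9 were at 77.5, 117 and 60.9 CPM and at 67.7, 76.5 and 59.7 CPM. Irf1 was the one factor past 1.5-fold.

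The oligoadenylate synthetase family, which activates RNase L, was the group whose sum differed least between Vehicle and Matrigel-only macrophages, with 203, 251 and 133 CPM and a log2 ratio of 0.30. Its members diverged. Oas3 was at 18.9, 43.0 and 13.7 CPM and Oasl2 at 71.1, 110 and 49.0 CPM, both higher in Vehicle. Oas2 went the other way, at 87.3 CPM in the Matrigel-only, 58.2 CPM in the Vehicle and 40.9 CPM in the Palo library. It was the only one of the 34 genes that was lower in Vehicle than in Matrigel-only macrophages. Oasl1 was at 23.0, 33.2 and 23.8 CPM, and Oas1a, low in every library, was at 3.0, 6.88 and 5.58 CPM.

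None of the 4 antiviral effectors passed 1.5-fold between Vehicle and Matrigel-only macrophages, although all 4 lay above 1. Bst2, or tetherin, which holds budding virus at the membrane and also marks plasmacytoid dendritic cells, gave the most UMIs of the list, at 230, 321 and 167 CPM. Siglech, a defining marker of those dendritic cells, was at 0.983, 3.48 and 0.0365 CPM in macrophages. The 5 markers of these cells, Bst2 among them, summed to 490, 566 and 346 CPM, with 0, 0 and 1 of them at 0. Bst2 itself gave 230, 321 and 167 CPM of these sums, so they do not gauge the cells apart from Bst2. The part of plasmacytoid dendritic cells in the Bst2 levels was not tested. Rsad2, or viperin, was at 28.5, 44.7 and 13.9 CPM, the dynamin-like GTPase Mx1 at 19.6, 27.4 and 14.3 CPM and the exonuclease Isg20 at 7.72, 13.0 and 9.59 CPM. Of the other induced genes, Ifi35, Rtp4 and Ifi44 were past 1.5-fold. Ifi35 was at 40.4, 72.7 and 38.2 CPM, Rtp4 at 61.5, 95.2 and 58.7 CPM and Ifi44 at 3.98, 9.93 and 2.12 CPM. Trim30a, at 147, 197 and 107 CPM, the ADP-ribosyltransferase gene Parp14, at 129, 184 and 95.8 CPM, and Xaf1, at 39.7, 51.6 and 34.4 CPM, did not reach it.

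**Figure D2:**
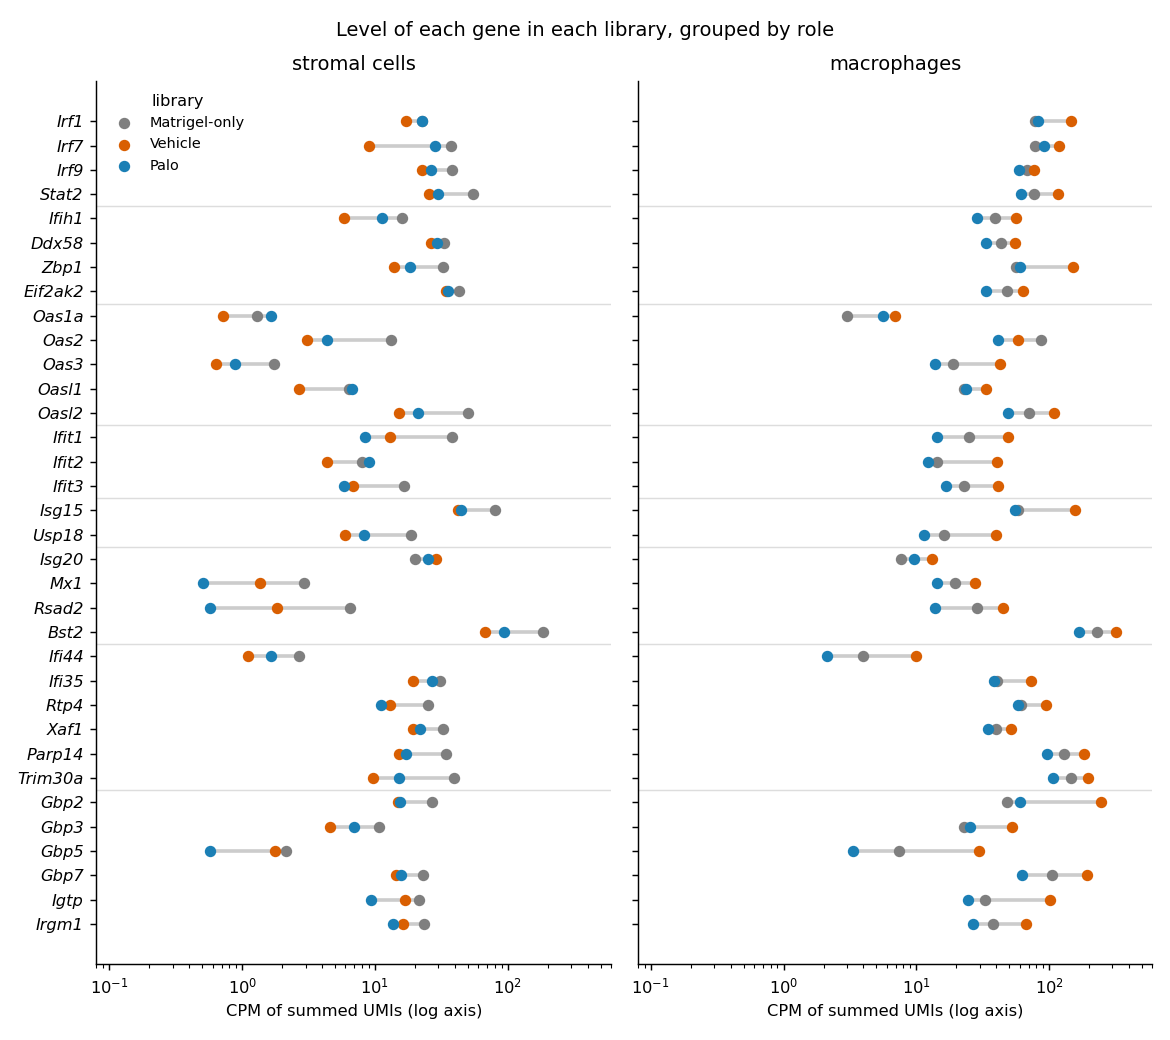
Level of each of the 34 genes in stromal cells (left) and macrophages (right), in CPM on a log axis, 1 point for each library, with genes grouped by role in the order of transcription factors, sensors, oligoadenylate synthetases, Ifit family, Isg15 system, antiviral effectors, other induced genes and GTPases. In macrophages the Vehicle point is the highest for 33 of 34 genes, and Oas2 is the exception.

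Palo macrophages had lower levels than Vehicle macrophages for all 34 genes, against 6469 of the 9539 genes tested. At least 1.5-fold lower were 27 of 34, and 0 were at least 1.5-fold higher, against 8.49% lower and 3.47% higher of all genes tested. The median log2 ratio was -0.91 over the listed genes and -0.14 over all genes. That median over all genes moved by 0.13 with TMM scaling, and 25 of the 34 genes were then at least 1.5-fold lower. The GTPases were again furthest apart, with a log2 ratio of their sum of -1.76, followed by the Ifit family at -1.60 and the Isg15 system at -1.55. The transcription factors were least apart at -0.64. Gbp5 was 8.77-fold, Igtp 4.11-fold and Gbp2 4.08-fold lower in Palo than in Vehicle. Usp18 was 3.52-fold, Ifit1 3.42-fold and Ifit2 3.30-fold lower. Among the smallest ratios were those of Oas1a, with a log2 ratio of -0.17, Isg20 at -0.31, Irf9 at -0.33, Irf7 at -0.37 and Oas2 at -0.46. By the promoter letters described earlier, the median log2 ratio was -1.14 for the 18 genes with a response element core and -0.65 for the 10 genes without one. It was -0.89 for the 10 genes with a gamma-activated site core and -1.0 for the 18 without it. Vehicle over Matrigel-only, the medians were 0.74 with and 0.58 without a response element core. They were 0.81 with and 0.58 without a gamma-activated site core. The ranges with and without each core overlapped in both comparisons.

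Palo macrophages also lay somewhat under the Matrigel-only macrophages, which had no rhBMP2, with a log2 ratio of the sum of -0.32 and a level 1.25-fold lower. Of the 34 genes, 4 were at least 1.5-fold lower and 0 at least 1.5-fold higher, against 4.1% lower and 1.73% higher of all genes. The median log2 ratio was -0.35 over the listed genes and -0.13 over all genes. With TMM scaling, 2 of 34 genes were past 1.5-fold lower and the log2 ratio of the sum was -0.15. Oas2, at 87.3 CPM in Matrigel-only and 40.9 CPM in Palo macrophages, was 2.14-fold lower and Rsad2 was 2.06-fold lower.

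The make-up of the macrophages was looked at through 2 genes, Ms4a7, which marks tissue macrophages, and Ly6c2, which marks cells recently derived from monocytes. Macrophages with a Ms4a7 UMI had a list sum of 2224 (Matrigel-only), 3638 (Vehicle) and 1771 CPM (Palo), and those without it 1256, 2205 and 1105 CPM. Vehicle over Matrigel-only, the log2 ratio was 0.71 with Ms4a7 and 0.81 without it, and Palo over Vehicle it was -1.04 and -1.0. The order of the libraries was therefore the same on both sides of this split. Cells with Ly6c2 made up 0.155%, 4.39% and 0.159% of the macrophages, and in the 141 Vehicle cells that had it the list was at 5379 CPM. Without them the sums were 1788, 2964 and 1436 CPM, with 16 of 34 genes at least 1.5-fold higher in Vehicle than in Matrigel-only (6.09% of all genes) and 0 lower (4.71%). Palo over Vehicle, 27 of 34 were at least 1.5-fold lower (8.32%) and 0 higher (3.39%). Neutrophil markers also stood higher in Vehicle macrophages, at a summed 109 CPM against 38.4 (Matrigel-only) and 33.5 CPM (Palo), with 0 of the 5 markers at 0 in any library, and conventional dendritic markers at 145 CPM against 57.1 and 65.1 CPM, again with 0 of 5 at 0. Endothelial markers were at a summed 9.34, 53.6 and 6.79 CPM in the Matrigel-only, Vehicle and Palo macrophages, with 1, 0 and 0 of 5 at 0, mostly from Pecam1 at 6.88, 44.7 and 4.09 CPM. Basophil markers were at 0.246, 9.93 and 0.109 CPM, with 3, 1 and 4 of 5 at 0, and mural markers at 1.82, 11.5 and 1.75 CPM, with 0, 0 and 1 of 5 at 0. The part of these markers in the difference was not tested. When a cell with a UMI of Csf1r or C1qa was called a macrophage with no regard to the other classes, so that stromal cells were let in, the sums were 1630, 2197 and 1301 CPM.

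In single macrophages, each thinned to 1400 UMIs, at least 3 UMIs of the list were found in 36.3% of Matrigel-only, 54.9% of Vehicle and 28.2% of Palo cells (65.1%, 81.4% and 72.8% before thinning). Too shallow to count were 566, 300 and 137 cells. A Gbp2 UMI was found in 5.84%, 21.4% and 7.07% of thinned cells, an Isg15 UMI in 6.14%, 14.3% and 6.02% and a Zbp1 UMI in 7.37%, 17.7% and 7.79%. The fibroblast gene Mmp2, a gauge of free RNA, was found in 1.69%, 1.99% and 0.875% of the same thinned macrophages and in 88.8%, 85.0% and 78.9% of stromal cells thinned to 3100 UMIs. The 5% of macrophages with the most list UMIs held 26.3%, 26.5% and 25.1% of them. Cells were ranked here without thinning, so these shares also carry the depth of the cells.

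Stromal cells showed the reverse order for the Vehicle library. Of the 34 genes, 28 passed the filter, and Oas1a, Oas3, Mx1, Rsad2, Ifi44 and Gbp5 did not. Vehicle over Matrigel-only, 18 of the 28 genes were at least 1.5-fold lower and 0 at least 1.5-fold higher, against 13.5% lower and 8.22% higher of the 10311 genes tested. The median log2 ratio was -0.73 over the listed genes and -0.04 over all genes. Isg20 alone was higher in the Vehicle library, at 20.2 CPM in Matrigel-only, 28.9 CPM in Vehicle and 25.1 CPM in Palo stroma.

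By role, the oligoadenylate synthetases were furthest apart in stroma, with 72.9, 22.3 and 34.7 CPM in the Matrigel-only, Vehicle and Palo libraries. Oasl2 was at 50.4, 15.1 and 21.1 CPM, 3.33-fold lower in Vehicle than in Matrigel-only, and Oas2 at 13.2, 3.09 and 4.36 CPM. Between Vehicle and Matrigel-only macrophages this family was the one that differed least, but between Palo and Matrigel-only macrophages it differed most (log2 ratio -0.61). The Ifit family came next with 62.3, 24.2 and 23.2 CPM, where Ifit1 was at 38.0, 13.0 and 8.40 CPM and Ifit3 at 16.4, 6.87 and 5.87 CPM, and both were lowest in Palo. Ifit2 was at 7.98, 4.32 and 8.97 CPM.

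Irf7 had one of the widest spans, at 37.7 CPM in the Matrigel-only, 9.03 CPM in the Vehicle and 28.1 CPM in the Palo stroma, 4.17-fold lower in Vehicle than in Matrigel-only and 3.11-fold higher in Palo than in Vehicle. The other transcription factors were closer, with Stat2 at 54.6, 25.6 and 29.7 CPM, Irf9 at 38.1, 22.5 and 26.5 CPM and Irf1 at 22.4, 17.2 and 22.8 CPM. Trim30a, a ubiquitin ligase of the TRIM family, was at 39.3, 9.75 and 15.2 CPM, 4.03-fold lower in Vehicle. Bst2 was at 185, 67.4 and 94.3 CPM, 2.75-fold lower, and gave the most UMIs of the list in stroma too. For each of these genes the Vehicle library was the lowest, and the Matrigel-only library was the highest for all but Irf1, whose Matrigel-only and Palo levels were close.

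Isg15 was at 80.5, 42.0 and 44.8 CPM and Usp18 at 18.8, 5.98 and 8.34 CPM in stroma, and Zbp1 was at 32.6, 13.9 and 18.4 CPM. The RNA sensor Ifih1 was at 16.0, 5.89 and 11.2 CPM, while Ddx58 at 33.1, 26.4 and 29.2 CPM and Eif2ak2 at 43.3, 34.5 and 35.7 CPM varied little. The GTPases, widest apart in macrophages, summed to 108, 68.8 and 61.6 CPM in stroma, 1.57-fold lower in Vehicle and 1.75-fold lower in Palo than in Matrigel-only. Of the 5 that passed the filter, 2 were at least 1.5-fold lower in Vehicle and 3 in Palo than in Matrigel-only. Gbp2 was at 27, 15.0 and 15.4 CPM, Gbp7 at 23.1, 14.3 and 15.7 CPM and Igtp at 21.5, 17.0 and 9.41 CPM. By the promoter letters, the median log2 ratio of Vehicle over Matrigel-only was -0.39 for the 8 stromal genes with a gamma-activated site core and -0.85 for the 15 without it. It was -0.78 for the 14 genes with a response element core and -0.57 for the 9 without one.

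Palo over Vehicle, stromal differences were small. Of the 28 genes, 2 were at least 1.5-fold higher (Irf7 and Oasl1) and 1 at least 1.5-fold lower (Igtp), against 10.3% higher and 7.35% lower of all genes tested. The median log2 ratio was 0.19 over the listed genes and 0.01 over all genes. Ratios above 1 were found for 22 of the 28 genes, against 5335 of the 10311 genes tested. Oasl1 was at 6.33, 2.67 and 6.76 CPM in the Matrigel-only, Vehicle and Palo libraries, and Igtp was 1.8-fold lower in Palo than in Vehicle. Palo stroma lay under Matrigel-only stroma, with a sum 1.70-fold lower and 15 of 28 genes at least 1.5-fold lower (3.98% of all genes) and 0 higher (1.34%). The median log2 ratio was -0.63 over the listed genes and -0.03 over all genes. Rsad2, which did not pass the filter, was at 6.43, 1.82 and 0.568 CPM.

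The stromal difference was also looked at in cells with and without a UMI of Pi16. This split rests on an RNA reading, so fewer such cells and less Pi16 RNA in each cannot be told apart. Pi16 marks fibroblasts of the adventitia and fascia that are regarded as progenitor-like. A Pi16 UMI was found in 1153 Matrigel-only stromal cells (55.3%), in 167 Vehicle cells (12.2%) and in 368 Palo cells (31.1%). After thinning to 3100 UMIs the shares were 45.6%, 7.94% and 22.8%, against 2.35%, 1.28% and 1.31% of macrophages thinned to 1400 UMIs. The Vehicle stromal cells, with the fewest Pi16 cells, were the deepest, with a median of 17114 UMIs against 9082 (Matrigel-only) and 12955 (Palo). Within each library the list was higher in the cells with Pi16, at 1559 against 459 CPM in Matrigel-only (3.40-fold), 1241 against 408 CPM in Vehicle (3.04-fold) and 795 against 516 CPM in Palo (1.54-fold). Of the 28 genes, 28, 27 and 26 were higher in the cells with Pi16, against 42%, 46.6% and 42.6% of all genes, and 24, 27 and 11 were at least 1.5-fold higher, against 5.6%, 10% and 5.63%.

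Within these subsets the differences between libraries took another form. Among cells with Pi16, Vehicle over Matrigel-only was nearer to 1, with a log2 ratio of -0.33, 3 of 28 genes at least 1.5-fold lower (7.68% of all genes) and 0 higher (6.72%). Palo over Vehicle was -0.64, opposite in sign to the whole stroma, with 10 of 28 genes at least 1.5-fold lower (6.81% of all genes) and 1 higher (5.73%). Palo over Matrigel-only was -0.97, with 18 of 28 genes lower (2.63%) and 0 higher (1.52%). Among cells without Pi16 the log2 ratios were -0.17, 0.34 and 0.17 in the same order of comparisons, and 2, 1 and 0 of 28 genes were at least 1.5-fold lower (12.5%, 7.19% and 3.16% of all genes), while 1, 3 and 2 were at least 1.5-fold higher (6.37%, 10.5% and 0.921%).

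Several genes in the cells with Pi16 showed the low Palo levels. Ifit1 was at 68.3 CPM in the Matrigel-only, 51.3 CPM in the Vehicle and 15.4 CPM in the Palo library, and Ifit3 at 29.2, 36.3 and 6.51 CPM. Rsad2, which did not pass the stromal filter, was at 12.7, 12.5 and 0.482 CPM, from 125, 31 and 2 UMIs. Its Palo value lay under the 0.723 CPM that 3 UMIs stand for in these cells. The Ifit family as a whole had a log2 ratio of -1.40, Palo over Vehicle, and the Isg15 system one of -1.11, with Isg15 at 141, 122 and 51.1 CPM. Rtp4 was at 40.0, 42.4 and 13.5 CPM and Igtp at 34.2, 33.9 and 14 CPM. For these genes the Palo library stood lower than both others. Ifit2, at 12.3, 9.29 and 14.7 CPM, and Isg20, at 22.2, 19.4 and 32.1 CPM, went the other way and were highest in Palo. The transcription factors did not share this order, with a log2 ratio of -0.08 (-0.27 to 0.11), and Irf7 was at 66.5, 33.5 and 42.2 CPM. In the cells without Pi16, Isg15 was at 22.3, 32.7 and 42.5 CPM and Irf7 at 9.80, 6.16 and 23.1 CPM.

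Held at the Matrigel-only share of UMIs from cells with Pi16, 49.1%, the stromal sums were 999.7, 817 and 653 CPM. The log2 ratio of Vehicle over Matrigel-only was then -0.29, and that of Palo over Vehicle -0.32, reversed in sign. With the cells that had an Acan or Col2a1 UMI left out, the sums were 1001, 669 and 590 CPM, with log2 ratios of -0.58 and -0.18. In the Vehicle cells with one of these cartilage genes the list was at 406 CPM. The lower stromal sum of the Vehicle library was thus found in smaller size within both Pi16 subsets, while the sign of Palo over Vehicle differed with the cells compared. In bulk or summed counts, fewer cells of a kind and less RNA in each cannot be told apart. The subsets are given beside the sum, and the split by a Pi16 UMI has the same limit for Pi16 itself.

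**Figure D3:**
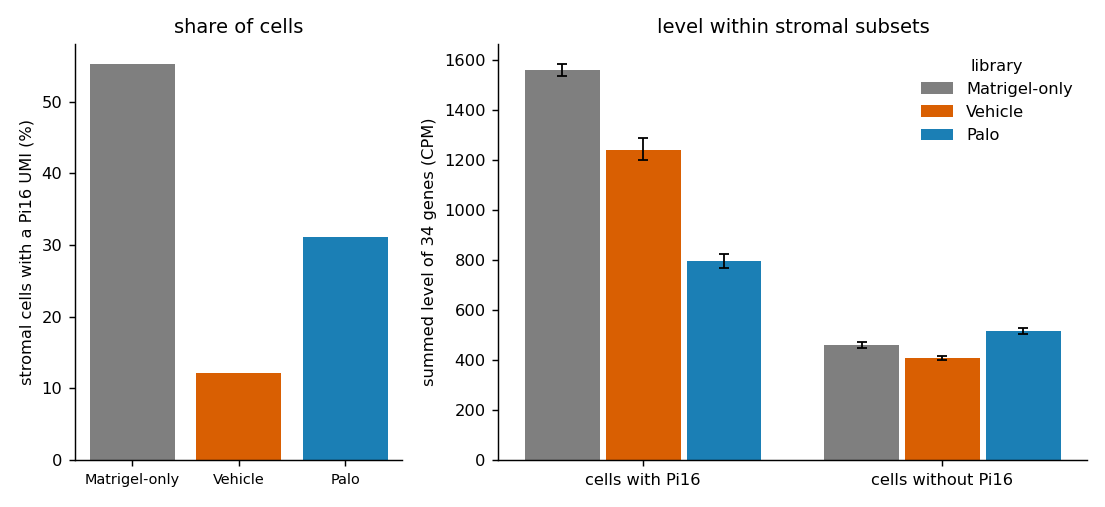
Share of stromal cells with a Pi16 UMI in percent, before thinning (left), and summed level of the 34 genes in CPM in stromal cells with and without a Pi16 UMI (right), by library, with exact Poisson 95% intervals on the levels. Cells with Pi16 are 55.3%, 12.2% and 31.1% of stroma, and they hold the list at 1559, 1241 and 795 CPM, above the 459, 408 and 516 CPM of the other cells.

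In single stromal cells thinned to 3100 UMIs, at least 3 UMIs of the list were found in 41.2% of Matrigel-only, 18.9% of Vehicle and 25.6% of Palo cells (73.2%, 69.8% and 79.0% before thinning). Too shallow to count were 207, 70 and 54 cells. A Bst2 UMI was found in 36.5%, 16.2% and 22.1% of thinned cells, an Irf7 UMI in 9.95%, 2.95% and 7.30% and a Trim30a UMI in 11.6%, 3.0% and 4.89%. C1qb, the gauge of free RNA, was found in 9.87%, 4.36% and 8.15% of these cells, above the shares of Irf7 and Trim30a in the Vehicle and Palo libraries, so that no difference was read from the shares of these 2 genes. Their levels were nonetheless above what carry-over from macrophages would give. On the CPM scale, the C1qb and C1qc shares would carry 3.01, 1.51 and 2.65 CPM of Irf7 into stroma, against 37.7, 9.03 and 28.1 CPM counted there, and 5.66, 2.50 and 3.11 CPM of Trim30a, against 39.3, 9.75 and 15.2 CPM. The 5% of stromal cells with the most list UMIs held 30.6%, 33.8% and 25.6% of them.

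As shares of the UMIs of each class, the same genes thus lay on opposite sides in the whole stroma and in macrophages. Of the 28 genes that passed the filter in both classes, 26 were lower in Vehicle than in Matrigel-only stroma and higher in Vehicle than in Matrigel-only macrophages, against 19.2% of the 8634 genes tested in both. At least 1.5-fold in both directions were 9 of them (Zbp1, Oasl2, Ifit1, Ifit3, Isg15, Usp18, Rtp4, Gbp2 and Gbp3), against 0.927% of all genes. The exceptions were Oas2, lower in both classes, and Isg20, higher in both. Palo over Vehicle, 22 of 28 genes were higher in stroma and lower in macrophages (31.8% of all genes) and 6 were lower in both. None was past 1.5-fold in both directions, 0 of 28 against 0.764% of all genes. The difference between the classes was not tested.

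**Figure D4:**
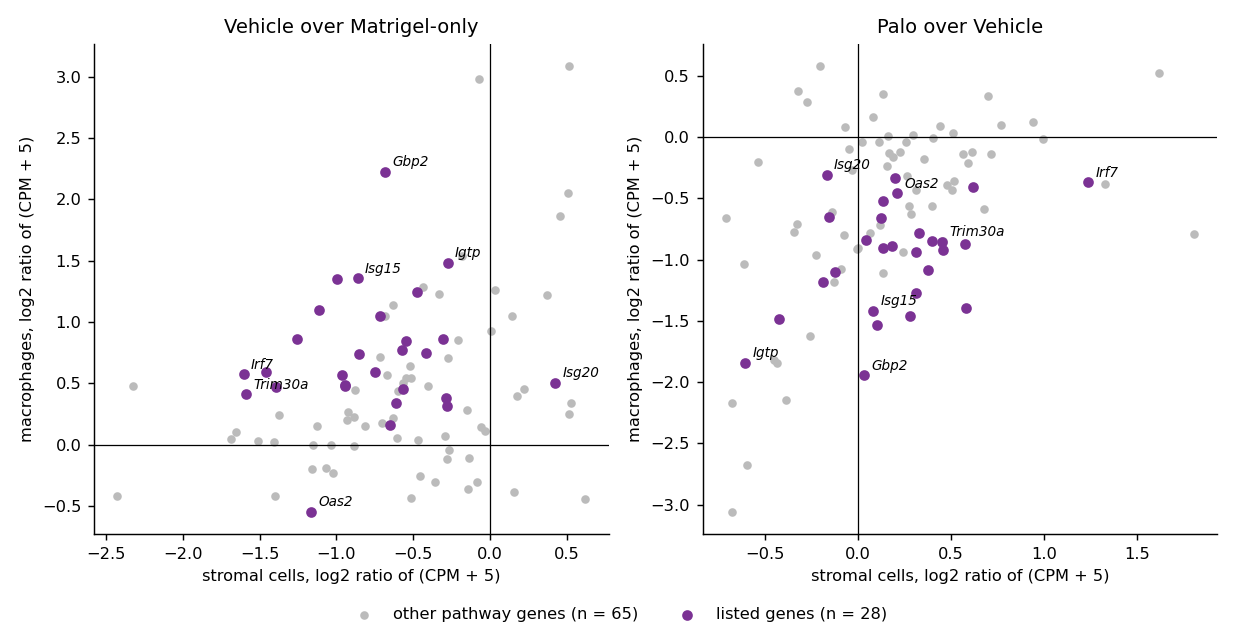
Log2 ratio of CPM with 5 added in macrophages (y axis) against stromal cells (x axis), Vehicle over Matrigel-only (left) and Palo over Vehicle (right), with 1 point for each gene that passed the filter in both classes. On the left 26 of the 28 listed genes (purple) lie in the upper left area, lower in Vehicle stroma and higher in Vehicle macrophages, and on the right 22 of 28 lie in the lower right area.

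T/NK cells were few, and their values are coarse. Vehicle over Matrigel-only the log2 ratio of the list sum was 0.69 (0.41 to 0.97), and Palo over Vehicle it was -1.03 (-1.31 to -0.76). Only 16 of the 34 genes passed the filter. At least 1.5-fold higher in Vehicle than in Matrigel-only were 8 of the 16 and lower 1, against 18.6% and 15.9% of the 4404 genes tested. In simulated counts of this depth, which held counting error only, 25.94% of unchanged genes passed the same fold. Igtp gave 5, 137 and 6 UMIs in Matrigel-only, Vehicle and Palo T/NK cells, or 55.7, 237 and 51.1 CPM, a Vehicle level 4.25-fold that of Matrigel-only (1.78 to 13.3). Gbp7 was at 190, 244 and 187 CPM, with 17, 141 and 22 UMIs. Gbp2 gave 2, 82 and 0 UMIs and Isg15 1, 60 and 4 UMIs, where 3 UMIs stand for 33.4, 5.19 and 25.5 CPM. Irf1 was at 245, 161 and 153 CPM and was the 1 gene at least 1.5-fold lower in Vehicle. Its Vehicle level was 0.656-fold that of Matrigel-only (0.409 to 1.10), a counting interval on both sides of 1. With TMM or median ratio scaling, 0 of the 16 genes were at least 1.5-fold lower.

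Palo over Vehicle, 11 of the 16 T/NK genes were at least 1.5-fold lower and 0 higher, against 19.2% and 11.7% of all genes. Most of the 16 genes passed the filter through their Vehicle counts, so this count has the same limit. The make-up of this class also differed. T/NK cells with Cd3e numbered 14, 95 and 9, with list sums of 1379, 2732 and 1139 CPM, and those with Nkg7 but no Cd3e numbered 36, 133 and 35, with 1300, 1541 and 999.5 CPM. Vehicle over Matrigel-only the log2 ratio was 0.99 (0.40 to 1.64) in the former and 0.25 (-0.08 to 0.58) in the latter. Basophil markers, at 0, 1424 and 0 CPM, and keratinocyte markers, at 11.1, 500 and 17.0 CPM, moved with the Vehicle library. With the 1, 20 and 1 cells that had such a marker left out, the sums were 1331, 2292 and 1042 CPM.

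Beyond the listed genes, the ligands of the pathway were scarce. Ifng, the gene of interferon gamma, gave 17, 170 and 27 UMIs over all passing cells of the Matrigel-only, Vehicle and Palo libraries, or 0.402 CPM (0.234 to 0.643), 4.23 CPM (3.62 to 4.92) and 0.604 CPM (0.398 to 0.879). Of these, 16, 164 and 22 UMIs lay in T/NK cells and 0 in macrophages. Within the T/NK class, 12 of 50 Matrigel-only cells (24%), 47 of 228 Vehicle cells (20.6%) and 12 of 44 Palo cells (27.3%) had an Ifng UMI. These shares were not thinned, and the median depth of the class was 1439.5, 2045.5 and 2021.5 UMIs. The Ifng level within the class was 178, 284 and 187 CPM, 1.59-fold higher in Vehicle than in Matrigel-only (0.951 to 2.85) and 1.52-fold lower in Palo than in Vehicle, with counting intervals on both sides of 1. T/NK cells were 0.573%, 4.16% and 0.603% of the passing cells. This share rests on a UMI of Cd3e or Nkg7 in cells of unequal depth, and the Vehicle class also held basophil markers. It is therefore a coarse measure of how common these cells were. The 10 type I interferon genes together gave 19, 8 and 15 UMIs, and the 2 type III genes gave 0 in each library, where 3 UMIs, the limit taken for a count of 0, stand for 0.0709, 0.0747 and 0.0671 CPM.

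The receptor genes differed little in macrophages, while 2 of the 4 tested in stroma passed 1.5-fold. In macrophages Ifnar1 was at 94.8, 97.2 and 99.5 CPM, Ifnar2 at 120, 126 and 112 CPM, Ifngr1 at 247, 210 and 266 CPM and Ifngr2 at 90.5, 108 and 81.6 CPM, and 0 of these 4 genes passed 1.5-fold in any comparison. Of all genes tested in macrophages, 6.3% were higher and 4.91% lower, Vehicle over Matrigel-only. In stroma Ifngr1 was at 113, 53.3 and 89.8 CPM and Ifngr2 at 59.9, 20.1 and 58.0 CPM. Both were at least 1.5-fold lower in Vehicle than in Matrigel-only (13.5% of all genes) and at least 1.5-fold higher in Palo than in Vehicle (10.3%). The other 2 receptor genes tested in stroma did not reach 1.5-fold in either comparison. The receptor-bound kinase Jak1, named for its large ratio, was at 374, 138 and 270 CPM in stroma.

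Of 93 other pathway genes fixed as a list, 77 passed the filter in macrophages. Vehicle over Matrigel-only 26 of them were at least 1.5-fold higher and 0 lower, with a median log2 ratio of 0.26, against 6.3% and 4.91% of all genes tested. Palo over Vehicle 35 were lower and 0 higher, with a median of -0.43, against 8.49% and 3.47% of all genes. Most of both counts came from 44 further interferon-induced genes, with 23 higher and 30 lower in these comparisons. Of 5 kinases and STATs, 2 were higher and 2 lower, and of 6 feedback inhibitors 1 and 2. Among 10 upstream sensors and adaptors these counts were 0 and 1. The 4 receptors, 5 other IRF factors and 3 MHC class I genes gave 0 in both. The largest ratios of Vehicle over Matrigel-only were those of Cxcl9, Cxcl10, Gbp4, Gbp8 and Jak2. Cxcl9, a chemokine that draws T cells, gave 3, 546 and 7 UMIs, or 0.147, 38.7 and 0.255 CPM. A Cxcl9 UMI was found in only 0.0263%, 1.74% and 0.058% of macrophages thinned to 1400 UMIs. These shares lay under those of Mmp2, the gauge of free RNA, at 1.69%, 1.99% and 0.875%, so no difference was read from them. Cxcl10, which binds the same receptor, was at 5.65, 79.4 and 8.17 CPM. The kinase Jak2 was at 26.0, 123 and 23.9 CPM, the feedback inhibitor Socs1 at 15.8, 71.1 and 11.9 CPM and Gbp4, a relative of the listed GTPases, at 3.64, 58.6 and 3.9 CPM. These genes were named for their large ratios, so the high Vehicle level of each follows from that choice. Cxcl9 and Gbp4 lay under 5 CPM in the Matrigel-only and Palo libraries and passed the filter through the Vehicle library.

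In stroma 65 of the 93 genes passed. Vehicle over Matrigel-only 28 were at least 1.5-fold lower and 1 higher, with a median log2 ratio of -0.52, against 13.5% and 8.22% of all genes tested. Palo over Vehicle 11 were higher and 5 lower, with a median of 0.16, against 10.3% and 7.35% of all genes. Ifi27l2a was at 616, 111 and 350 CPM in the Matrigel-only, Vehicle and Palo stroma, and Slfn5, of the Schlafen family, at 319, 59.7 and 222 CPM. The nuclear body gene Sp100 was at 70.6, 18.4 and 32.5 CPM. These genes were named for ratios of at least 2-fold, so the low Vehicle level of each follows from that choice. All 3 stood between the other libraries in Palo stroma.

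**Figure D5:**
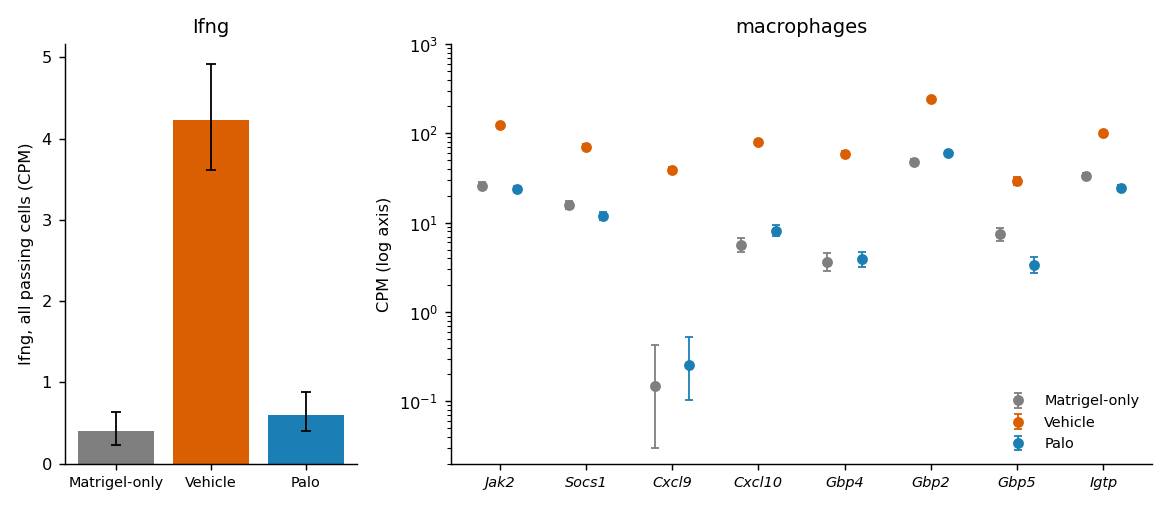
Ifng over all passing cells in CPM (left, bars from 0) and 8 genes in macrophages in CPM on a log axis (right), by library, with exact Poisson 95% intervals. Gbp2, Gbp5 and Igtp are listed genes and the others are pathway genes outside the list. Ifng is at 0.402, 4.23 and 0.604 CPM. The 8 macrophage genes were picked for large ratios of Vehicle over Matrigel-only, so their high Vehicle levels follow from that choice.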

How the data were processed

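The authors aligned droplet libraries to mm10 with Cell Ranger 3.0.2 and used Seurat 3, per the submitters' processing notes, and deposited raw UMI counts per gene and barcode for 3 libraries, without normalization. The members and lists were chosen with earlier results of these data known. Cells with 200 to 6000 genes and at most 5% mitochondrial UMIs were kept and put in exclusive classes by marker UMIs, without clustering. No doublet caller was run; leaving out cells above the 95th percentile of UMIs stood in for one. UMIs were summed by class and library and given as CPM. With 1 library per condition no test was run, and nothing ties the cells to animals. Log2 ratios of single genes used CPM with 5 added, for genes with a mean of at least 5 CPM and at least 30 UMIs over the libraries, and 1.5-fold was the limit counted.

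Every member could be named; other pathway genes were named when they were ligands, receptors or, at most 6 per comparison, at least 2-fold different. A gene that the rule also named is not reported here. Shares of cells were computed after thinning each cell by the hypergeometric formula to 3100 (stromal), 1400 (macrophage) or 700 (T/NK) UMIs. Thinned T/NK shares are not printed. The tools were edgeR 4.0.16 in R 4.3.3, for TMM factors only, and Python 3.11.15 (scipy 1.17.1, numpy 2.4.6, pandas 2.3.3). Figures were drawn with matplotlib 3.10.9. On simulated counts with 200 genes changed 2-fold, 90% were recovered in 10318 stromal, 88.5% in 9517 macrophage and 73.5% in 4404 T/NK genes, and 0, 0 and 25.94% of unchanged genes passed 1.5-fold. The simulated libraries shared 1 profile and differed by counting error only. These shares therefore leave out variation between libraries or animals, which could not be gauged here. Gene positions came from GENCODE vM21 (mm10) and promoter windows from RefSeq on GRCm38.p6. The depth of 44252421 to 46901673 UMIs per library set the counting intervals. The authors' clusters, histology, protein and PCR data were not used here.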

Additional observations from a re-analysis of the deposited data

Results flagged for a closer look

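In CPM, the list sum and 9 genes lay on opposite sides in macrophages and stromal cells for Vehicle over Matrigel-only. With 1 library per condition the difference between the classes was not tested. The log2 ratio in macrophages minus that in stromal cells was 1.79 for the list sum. For the guanylate-binding genes it was 2.91 for Gbp2 and 1.76 for Gbp3. It was 2.34 for Zbp1, 2.22 for Isg15 and 2.21 for Usp18. For the Ifit genes it was 2.12 for Ifit1 and 1.59 for Ifit3, and it was 2.05 for Oasl2 and 1.34 for Rtp4. The stromal side depended on the cells compared, with a log2 ratio of the sum of -0.29 when the Pi16 share was held, against -1.01. Among stromal cells with Pi16, Ifit3 (0.27), Rtp4 (0.08) and Zbp1 (0.05) were not lower in Vehicle, while Oasl2, Ifit1, Isg15, Usp18, Gbp2 and Gbp3 were. Among those without Pi16, Isg15 (0.47) was higher in Vehicle and the others were lower. For Palo over Vehicle, the list sum also lay on opposite sides, with a difference of -1.34, and the stromal ratio took the other sign when the Pi16 share was held.

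The cells that fell in no class were used in no comparison by class, but they were part of the levels over all passing cells. In the Vehicle library their list sum was 2386 CPM, against 1035 CPM in the Matrigel-only and 1138 CPM in the Palo library. These Vehicle cells held neutrophil markers at a summed 1776 CPM and basophil markers at 990 CPM, against 39.9 and 4.85 CPM in the Matrigel-only library. The part of these cells in the difference was not tested.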

How the results depend on the processing

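Each value rests on 1 library per condition. No paired analysis was possible because each condition has 1 library and no replicate could be left out. Over 15 alternatives the sums gave 99 values, of which 63 moved by less than their counting interval, 34 moved further and 2 reversed. Both reversals were stromal sums of Palo over Vehicle (log2 ratio 0.25), which became -0.32 with the Pi16 share held and -0.18 without cells with Acan or Col2a1, choices added after the data were seen. The same choices gave -0.29 and -0.58 for stromal Vehicle over Matrigel-only (-1.01). That ratio was -0.95 with no cell filter, -1.08 with stricter class limits, -0.95 with TMM, -0.98 with median ratio scaling, -1.06 without cells above the 95th percentile of UMIs and -0.97 without the 3 highest members. Stromal Palo over Vehicle was 0.32 with stricter limits, 0.14 as a mean over cells and 0.19 without the deepest cells. Macrophage Vehicle over Matrigel-only (0.78) was 0.43 with each class rule alone, which lets stromal cells in, 0.75 with stricter limits, 0.82 as a mean over cells, 0.86 without the deepest cells, 0.88 without the 3 highest members and 0.73 with the Ly6c2 share held, also added after the data were seen. Macrophage Palo over Vehicle (-1.10) was -0.76 with each rule alone, -0.94 with TMM, -0.96 with median ratio scaling, -1.13 as a mean over cells, -1.17 without the deepest cells, -1.15 without the 3 highest members and -1.05 with the Ly6c2 share held. T/NK Vehicle over Matrigel-only (0.69) was 1.17 with the rule alone. Taking off the C1qb and C1qc share, or T/NK cells with basophil or keratinocyte markers, moved no sum beyond its interval. The class rule allowed T/NK cells no UMI of Csf1r or C1qa, so C1qb and C1qc could show little carry-over there. Of the counts past 1.5-fold in either direction, stromal Vehicle over Matrigel-only (18) was 9 with 20 CPM added, Palo over Vehicle (3) was 6 with 1 CPM and 1 with 20 CPM, and Palo over Matrigel-only (15) was 5 with 20 CPM. Macrophage Palo over Matrigel-only (4) was 7 with 1 CPM and 2 with 20 CPM. With no filter on low counts, the T/NK counts (9, 11 and 11) were each 20 of 34, and Palo over Matrigel-only was 7 with 20 CPM. Of 1700 values of single members, 1 reversed: Irf1 in T/NK cells, Vehicle over Matrigel-only, was 0.21 with the rule alone. The causes of these shifts were not tested. Depth limits the T/NK class most, where 3 UMIs stand for 33.4 CPM in Matrigel-only cells.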
